A study of Mus musculus with 31 samples.

Results

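The 12 BXD strains 1, 2, 6, 9, 12, 14, 18, 19, 24, 29, 31 and 32 were set against the other 19 of 31 BXD strains, and were chosen by their values at a single array probe, where they form the smaller of 2 clusters. That probe is called the defining probe here. The other strains were 5, 8, 11, 13, 15, 16, 20, 21, 22, 23, 27, 28, 33, 34, 36, 38, 39, 40 and 42. BXD strains, BxD/TyJ in the labels, are recombinant inbred mice. They descend from C57BL/6J and DBA/2J grandparents by repeated brother-sister mating, and each carries its own fixed mixture of the alleles of both. The 31 samples were whole livers of males aged 8 weeks, with the RNA of 3 mice of a strain pooled, labelled with Alexa Fluor 647 and hybridised to 1 two-colour glass array. A pool of liver RNA from 9 C57BL/6J males of the same age, labelled with Alexa Fluor 555 and holding a spike-in RNA mix, was the common reference on every array. No treatment is listed for either set, and the 12 and the 19 differ in the labels by strain number only.

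The liver is a useful place to look at inherited expression differences because hepatocytes make up most of its mass and many of their enzymes and secreted proteins are regulated strongly by genotype, sex hormones, feeding and time of day. In recombinant inbred strains, a local regulatory variant moves its own gene in all strains with 1 allele, and a variant of a regulator can move many genes together. Stearoyl-CoA desaturase, fatty acid hydroxylases of the Cyp4a family and major urinary proteins are familiar examples of liver genes that vary between mice.

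All values are log2 ratios of a strain to the C57BL/6J pool, and a difference is the mean of the 12 strains minus the mean of the other 19. The direction of the deposited ratio is not stated and is taken as strain over reference, which is likely from the dyes. If it were the other way, every sign given here would turn. The ratios do not show the absolute level of any gene, so the presence of hepatocyte transcripts could not be checked from them. Each p-value sets the difference of the set means against the spread between arrays within the sets. With 1 array per strain, that spread holds differences between strains, RNA pools and arrays together. The value of a strain has no replicate check.

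The defining probe has no gene in the platform annotation. Its ratio was -2.02 in strain 6, the lowest of the 12, with a median of -1.77 and a highest value of -0.94 in strain 29, against a lowest value of -0.15 in strain 28, a median of 0.38 and a highest value of 0.98 in strain 13 among the other 19. The means were -1.68 ± 0.35 in the 12 and 0.41 ± 0.26 in the 19 (SD, n = 12 and n = 19), and the gap between strains 29 and 28, the members on either side of it, was 0.79. These values chose the sets and are a description, with no test. The identifier of the probe is a multiple of 8, a class of probes that behaved differently from the rest on these arrays. The reason was not determined. The words every 8th place refer below to the identifier only, and no position on the array was checked.

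**Figure D1:**
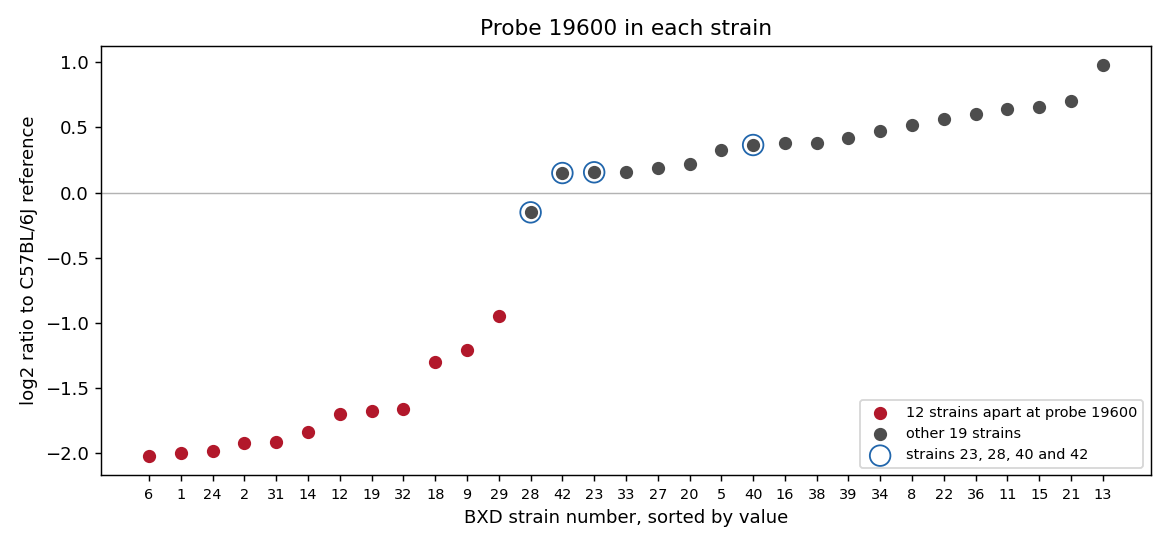
Log2 ratio of the defining probe to the C57BL/6J reference (vertical axis) in each of the 31 strains, ordered by value, with the 12 strains in red and the other 19 in grey. The 12 strains lie between -2.02 and -0.94 and the other 19 between -0.15 and 0.98; circles mark strains 23, 28, 40 and 42, whose arrays correlated poorly with the rest.

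Strains 23, 28, 40 and 42 stood apart from the others over all probes and all lie among the 19. The median correlation of an array with the other 30 arrays ran from 0.73 to 0.79 in the 12, against 0.06 to 0.79 in the 19, and 0.57 to 0.79 in the 19 without those 4. Probes whose identifier is a multiple of 8 had array medians of -0.70 to -0.59 in the 12, against -0.72 to 0.01 in the 19 and -0.72 to -0.50 without the 4. The sets also differ in breeding history: strains numbered above 32 were added to the panel later, and all 7 of them here are among the 19, so that 12 strains numbered up to 32 remain on either side. The comparison was repeated without the 4 strains, with each class of places centred on its own array median (place centring), and among strains up to 32.

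With the defining probe left out, 693 of 21764 probes (3.18%) differed between the 12 and the 19 in limma at a Benjamini-Hochberg adjusted p under 0.05, and 4931 at an unadjusted p under 0.05. Of the 693, 250 (1.15% of probes) were higher in the 12 and 443 (2.04%) were lower. Differences were modest, at least 0.2 in size for 687 of the called probes (3.16% of all), at least 0.5 for 198 and at least 1 for 25. Calls took 3.14% of probes with 1 gene, 3.27% of those with none listed and 5.22% of those with several. The median size was 0.33 among those higher and 0.42 among those lower, against 0.10 over all probes tested. No probe separated the sets completely (0 of 21764, 0%), as the defining probe does by construction.

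The lower calls leaned on the every 8th places. These held 178 of the 693 calls, 6 higher and 172 lower, or 7.03% of their 2531 probes, against 515 calls, or 2.68% of 19233, elsewhere. The median difference was -0.13 over all every 8th probes and 0.02 over the others. The share of calls that were lower was 63.9%, against 48.3% of all probes with a negative difference, and it was 56.1% (187 higher, 239 lower) where the every 8th probes were left out. The sign of a called probe was the same wherever it was tested under the other settings, but which probes passed depended on the strains and arrays used.

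The number of calls moved with single strains. Without 1 strain at a time it ran from 334 to 627 among the 12 and from 430 to 1375 among the 19. It fell by more than 1.5 times without strain 1 (389 calls), strain 6 (334), strain 12 (456), strain 14 (390), strain 18 (441), strain 24 (367) or strain 38 (430), and grew by more than that without strain 13 (1127) or strain 21 (1375). Of the 693 probes, 279 (40.3%) passed in all 31 of these fits. Without strains 23, 28, 40 and 42 together, 903 probes passed (4.15%), 487 of them shared with the 693, and 250 of the 903 were at every 8th places (9.88% of those). Among strains numbered up to 32, 12 against 12, 73 passed, 70 of them shared, and with the first principal component of the arrays as a covariate 189 passed, 73 of them shared.

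The strains of the 19 were not equally far from the 12. For each of the 693 probes, every strain was placed on 1 side of the midpoint between the 2 set means, a description made after the values were seen. No such share was taken over all probes, and the 693 were called for a difference between these same sets. A split of the shares by set therefore follows from the choice of probes. Strains of the 12 lay on their own side at 76.9% to 93.4% of these probes, with a median of 85.2%, and strains of the 19 lay on the side of the 12 at 5.48% to 77.1%, with a median of 17.03%. Strain 21 was at 77.1%, above strain 2 of the 12 at 76.9%, strain 13 was at 63.2% and strain 16 at 57.6%. Strain 13, which has the highest value of all at the defining probe, was thus nearer to the 12 than to the 19 at most of these probes. Strains 38 and 42 were the farthest, at 5.48% and 5.77%. On the first principal component of the arrays, strains 21, 13 and 16 had -20.6, -17.0 and -17.6. The 12 ran from -20.9 to -5.29. Strains 38 and 42 had 20.7 and 59.2 there, and their median correlations with the other arrays were 0.57 and 0.33. Whether the shares follow the strain or the state of its array was not tested.

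**Figure D2:**
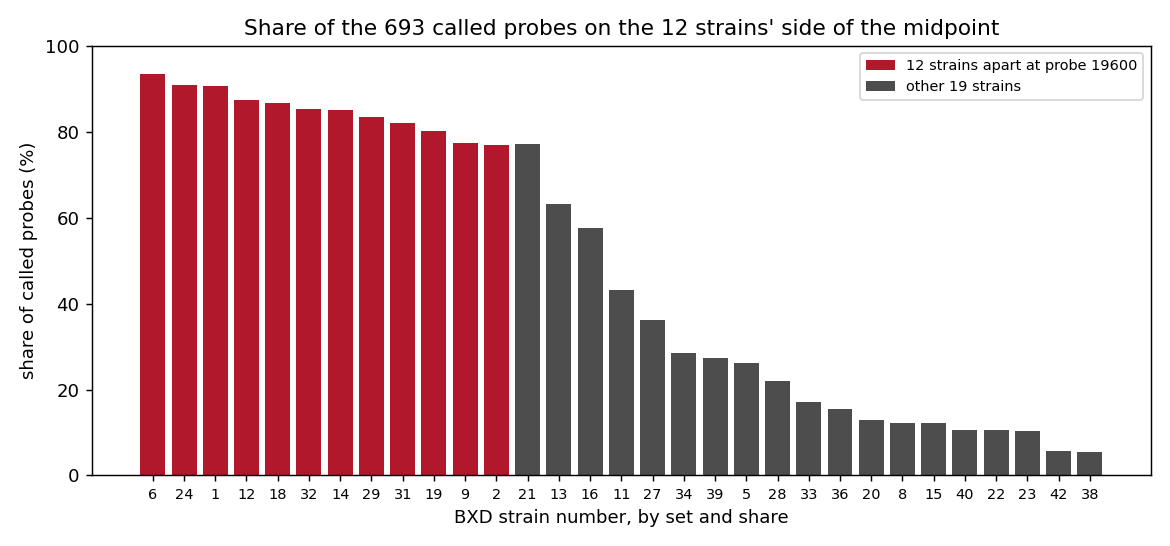
Share of the 693 probes (vertical axis, percent) at which each strain (horizontal axis) lay on the side of the 12 strains, red bars being the 12 and grey bars the other 19. The 693 were called for a difference between these sets, so the split by set follows from the choice of probes. The 12 strains lie between 76.9% and 93.4%; strains 21, 13 and 16 reach 77.1%, 63.2% and 57.6%, and the remaining 16 of the 19 lie at 43.1% or below.

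The gene with the clearest rise was Selenbp2, a liver selenium-binding protein known for binding acetaminophen metabolites. Its ratio ran from 1.05 (strain 19) through a median of 1.38 to 2.19 (strain 18) in the 12, against -0.38 (strain 23), 0.46 and 1.38 (strain 36) in the 19. The means were 1.54 ± 0.40 in the 12 and 0.51 ± 0.40 in the 19 (SD, n = 12 and n = 19), and the difference was 1.03 ± 0.14 (SE; limma adjusted p = 0.000161), a 2.04-fold higher ratio. The sets overlapped through strains 34 and 36 alone, which lay past the lowest of the 12. Selenbp2 passed without the 4 strains, among strains up to 32, with the first component as covariate and in all 31 fits without 1 strain.

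Its neighbour Selenbp1, which encodes the closely related methanethiol oxidase, was higher too. Its ratio ran from 0.32 through 1.23 to 1.76 in the 12, against -1.52 through 0.08 to 1.68 in the 19, a difference of 0.89 ± 0.24 (adjusted p = 0.0336). The overlap was wide, with 9 of the 19 past the lowest of the 12, and the gene did not pass without the 4 strains (0.66, adjusted p = 0.0560). In windows of 300 bases around their start sites, 272 of 288 aligned bases (94.4%, gaps not counted) are identical. The rest of the genes was not compared. The probe sequences were not used here, so how far either probe reads the other gene's transcript is unknown. Both windows are shown because the pair are neighbours that were called together and the windows share so much sequence. They are the plus strand of RefSeq GRCm38.p6, chr3:94693323-94693622 for Selenbp2 and chr3:94932833-94933132 for Selenbp1, with 250 bases before the annotated start in lower case and the 50 bases from the start onward, the beginning of the transcript, in capitals.
Selenbp2: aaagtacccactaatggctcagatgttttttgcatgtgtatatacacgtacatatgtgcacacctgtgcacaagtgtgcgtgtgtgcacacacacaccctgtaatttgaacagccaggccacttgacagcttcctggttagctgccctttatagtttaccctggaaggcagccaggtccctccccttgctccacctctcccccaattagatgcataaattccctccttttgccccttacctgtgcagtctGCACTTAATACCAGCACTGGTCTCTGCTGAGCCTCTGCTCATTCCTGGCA
Selenbp1: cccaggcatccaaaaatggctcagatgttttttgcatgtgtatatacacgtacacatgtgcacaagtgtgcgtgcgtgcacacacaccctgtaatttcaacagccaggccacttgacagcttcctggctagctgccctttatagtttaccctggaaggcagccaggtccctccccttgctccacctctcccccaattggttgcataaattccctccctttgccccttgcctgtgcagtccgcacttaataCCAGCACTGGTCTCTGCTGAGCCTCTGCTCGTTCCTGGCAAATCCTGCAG

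Scd1 had the highest difference of any gene with a usable name. It encodes stearoyl-CoA desaturase, which makes monounsaturated fatty acids. All 31 strains were below the C57BL/6J pool at this probe, but the 12 less so: -2.10 (strain 31), -0.98 (median) and -0.18 (strain 24) in the 12, against -3.84 (strain 20), -2.47 and -0.76 (strain 13) in the 19. The value of strain 20 is the lowest found on any array, and all arrays share the same distribution of values. The means were -1.05 ± 0.55 and -2.32 ± 0.85 (SD, n = 12 and n = 19), a difference of 1.28 ± 0.26 (SE; adjusted p = 0.00755). Strains 11, 13, 16, 21, 27 and 40 of the 19 lay within the range of the 12. The call held in all 31 fits without 1 strain and with the first component as covariate, but not among strains up to 32 (1.04, adjusted p = 0.0984).

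Fasn, fatty acid synthase, went the other way in the same pathway. It ran from -0.67 through -0.40 to 0.19 in the 12, against -0.66 through 0.46 to 1.33 in the 19, a difference of -0.69 ± 0.16 (adjusted p = 0.0176). Like Scd1, it held in all 31 fits and with the first component as covariate (-0.70, adjusted p = 0.0479), but not among strains up to 32 (-0.65, adjusted p = 0.0980). Over the 22 probes of the fatty acid synthesis list, Scd1 alone was higher, Fasn alone was lower, and the median difference was 0.02, against 0.01 over all probes.

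Cyp4a10 and Cyp4a14, neighbouring genes for fatty acid omega-hydroxylases and well-known targets of the nuclear receptor PPAR-alpha, were both lower in the 12. Cyp4a10 ran from -1.69 through -0.37 to 0.70 in the 12, against -1.06 through 1.11 to 1.84 in the 19, a difference of -1.27 ± 0.30 (adjusted p = 0.0197). Cyp4a14 ran from -2.08 through -0.15 to 0.30 in the 12, against -1.21 through 0.58 to 2.62 in the 19, a difference of -1.16 ± 0.28 (adjusted p = 0.0234). At both, strains 13, 16, 21, 28 and 40 lay within the range of the 12, together with strain 8 at Cyp4a10 and strain 36 at Cyp4a14. Both calls held in all 31 fits without 1 strain and without the 4 strains, and neither held among strains up to 32 (adjusted p = 0.167 and 0.117). These are closely related genes, so their probes may share signal. The other 19 probes of the list of fatty acid oxidation genes and PPAR-alpha targets did not pass. Acadm, which starts medium-chain fatty acid oxidation, had -0.34 (adjusted p = 0.059), and the list's median difference was -0.01.

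Within the sets, Cyp4a10 and Cyp4a14 had a correlation of 0.49 over the 12 and 0.69 over the 15 of the 19 left without the 4 strains, as a description.

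Car3, a carbonic anhydrase abundant in male mouse liver, fat and muscle, was higher in the 12. It ran from -0.14 (strain 24) through 0.73 to 1.27 (strain 19) in the 12, against -2.29 (strain 38) through -0.44 to 1.10 (strain 13) in the 19, a difference of 1.11 ± 0.26 (adjusted p = 0.0186), and it held in all 31 fits. Fat can adhere to liver samples, and whether it did so here was not tested. Of the 12 probes of the adipose list only Car3 passed. Adipoq, the adipocyte hormone adiponectin, had -0.66 (adjusted p = 0.107) and Fabp4 0.07 (adjusted p = 0.497). The mean of the list ran from -0.33 to -0.03 in the 12, against -0.36 to 0.15 in the 19. Mup2, a major urinary protein made under androgen and growth hormone control, is at an every 8th place and belongs to a family of near-identical genes. It ran from -0.11 through 0.67 to 1.59 in the 12, against -2.94 (strain 38) through 0.01 to 0.86 in the 19, a difference of 0.88 ± 0.24 (adjusted p = 0.0394), and did not pass without the 4 strains (adjusted p = 0.0548). Mup3 had 0.70 (adjusted p = 0.067).

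Kcnk5, a background potassium channel, and Ly75, the endocytic receptor DEC-205 of dendritic cells, were higher in the 12 and moved together across strains. Kcnk5 ran from 0.50 through 1.55 to 2.82 in the 12, against -3.10 (strain 38) through 0.56 to 1.83 in the 19. Ly75 ran from 0.33 through 1.31 to 2.34 in the 12, against -2.50 (strain 38) through 0.48 to 1.72 in the 19. Strain 24 was the lowest and strain 18 the highest of the 12 at both probes, and 13 and 14 of the 19 lay past the lowest of the 12. The differences were 1.09 ± 0.30 (adjusted p = 0.0384) and 0.94 ± 0.27 (adjusted p = 0.0452). Their correlation was 0.70 over the 12 and 0.97 over the 15 strains without the 4. The 15 include strain 38 with its low values, and the correlation was not taken without that strain. The 2 genes lie on chromosomes 14 and 2. Both passed among strains up to 32 (adjusted p = 0.0300 and 0.0328), did not pass without the 4 strains (0.0503 and 0.0586), and passed in 21 and 13 of the 31 fits without 1 strain, the fit without strain 38 among them.

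The other genes among the 12 highest differed in how well their calls held. Klrb1b, an inhibitory receptor of natural killer cells, had 0.93 ± 0.22 (adjusted p = 0.0210) and held in all 31 fits, and its second probe had 0.59 (adjusted p = 0.0803). None of the 26 probes of the lymphocyte list passed, and the list's mean ran from -0.08 to 0.03 in the 12, against -0.22 to 0.10 in the 19. Eef1a1-ps1, annotated as a pseudogene of the translation elongation factor EEF1A1 and so open to signal from its abundant parent, had 0.79 ± 0.19 (adjusted p = 0.0230) and held in all 31 fits. Tmem216, a protein of the base of the cilium, had 0.84 (adjusted p = 0.0419, passing in 13 of 31), the forkhead factor Foxq1 0.76 (0.0471, in 8 of 31) and the Ras-like GTPase Rit2 0.75 (0.0373, in 18 of 31). The second probes of Foxq1 and Rit2 had -0.01 and -0.10 and did not pass.

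Among the lowest differences, some genes had a narrow range in the 12 and a wide one in the 19. Terb2, which ties telomeres to the nuclear envelope in meiosis, ran from -1.03 through -0.82 to -0.45 in the 12, against -0.96 through 0.11 to 3.09 (strain 36) in the 19, with SDs of 0.17 and 1.32. Upp2, a liver uridine phosphorylase whose probe is at an every 8th place, ran from -2.45 through -2.21 to -2.02 in the 12, against -2.09 through -1.70 to 1.68 (strain 8) in the 19, with SDs of 0.13 and 1.33. Only strains 20 and 22 of the 19 reached the range of the 12 at Upp2, but many lay close above it. The differences were -1.31 ± 0.36 (adjusted p = 0.0385) and -1.29 ± 0.36 (adjusted p = 0.0425), and the calls held in 18 and 15 of the 31 fits. Upp2 did not pass with place centring (adjusted p = 0.0695).

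Tead2, a transcription factor of the Hippo pathway, and Mamstr, a coactivator of the MEF2 factors, had the same form. Tead2 ran from -1.61 through -1.33 to -1.01 in the 12, against -1.28 through -0.17 to 1.55 (strain 42) in the 19, a difference of -1.25 ± 0.27 (adjusted p = 0.0128). Mamstr, at an every 8th place, had -1.06 ± 0.25 (adjusted p = 0.0193). Both held in all 31 fits, and their correlation was 0.87 over the 15 strains and -0.05 over the 12. The second probe of Mamstr had 0.09 and did not pass.

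A further group was low in the 12 with a wide range there too. Scel, a protein of the cornified envelope of skin, ran from -3.49 (strain 14) through -2.20 to -1.21 (strain 29) in the 12, against -2.80 (strain 13) through -0.59 to 0.37 (strain 38) in the 19, a difference of -1.29 ± 0.29 (adjusted p = 0.0132). Tuba4a, an alpha-tubulin, ran from -3.84 (strain 14) through -1.84 to -0.51 (strain 29) in the 12, against -2.28 through -0.23 to 0.30 in the 19, a difference of -1.23 ± 0.32 (adjusted p = 0.0313). The Tuba4a value of strain 14 is the lowest found on any array. The ratios of Scel and Tuba4a correlated at 0.89 over the 12 and 0.92 over the 15. The second probe of Tuba4a had 0.25 (adjusted p = 0.145), opposite in sign, and the call was lost without the 4 strains (-0.99, adjusted p = 0.0708).

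Llgl2, a regulator of epithelial cell polarity, had -1.19 ± 0.29 (adjusted p = 0.0218), and Ms4a6c, a membrane protein of myeloid cells, had -1.16 ± 0.25 (adjusted p = 0.0128). Strain 14 was the lowest of the 12 at both, and they correlated at 0.85 over the 12 and 0.85 over the 15. Ms4a6d, the neighbour and close relative of Ms4a6c, was lower as well (-0.44 ± 0.09, adjusted p = 0.013), though its second probe had -0.11 and did not pass. Of the 23 probes of the Kupffer cell and macrophage list 1 passed, Hmox1, the stress-induced heme oxygenase, at -0.32 (adjusted p = 0.0319). The list's mean ran from -0.02 to 0.13 in the 12, against -0.30 to 0.31 in the 19. The 2 remaining genes, both at every 8th places, were Tmem70, an assembly factor of ATP synthase, at -1.12 ± 0.26 (adjusted p = 0.0186), and Rad54l2, a helicase-like nuclear protein, at -1.08 ± 0.22 (adjusted p = 0.00768). Both held in all 31 fits.

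**Figure D3:**
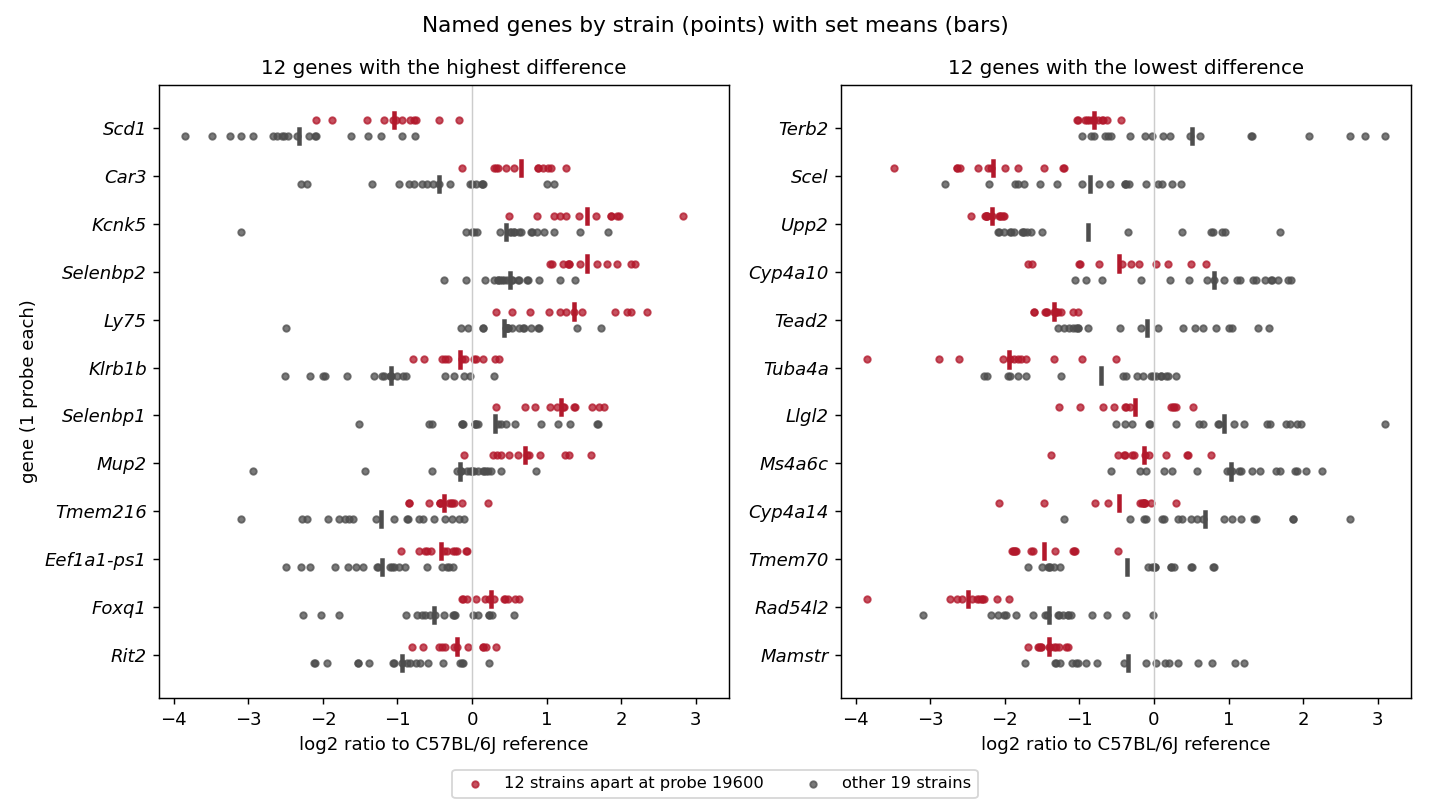
Log2 ratios (horizontal axes) of the 12 genes with the highest differences (left) and the 12 with the lowest (right), 1 row per gene, with a point per strain and a bar at each set mean, the 12 strains in red above the other 19 in grey. The sets overlap at every gene, least at Selenbp2 and Upp2, where 2 of the 19 strains lie past the edge of the 12; Terb2, Upp2, Tead2 and Mamstr are narrow in the 12 and wide in the 19.

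All 24 of these genes kept their sign under all settings tried. Of the 24, 14 passed in all 31 fits without 1 strain, 19 passed without the 4 strains, 22 with place centring (all but Foxq1 and Upp2), 3 (Selenbp2, Kcnk5 and Ly75) among strains up to 32, and 2 (Scd1 and Selenbp2) with the first component as covariate. The difference shrank by more than 1.5 times for 1 of them, Foxq1, without the 4 strains (0.48), and for 9 with the covariate: Selenbp1, Tmem216, Eef1a1-ps1, Foxq1, Rit2, Tead2, Tuba4a, Llgl2 and Ms4a6c. Among probes with no gene in the annotation, number 10243 had the largest difference of all lower calls, running from -3.24 through -1.79 to -1.01 in the 12, against -1.99 through -0.21 to 1.10 in the 19 (-1.52 ± 0.27, adjusted p = 0.00215). Probes 14658 and 13284 had -1.24 and -1.11, and probes 7898, 10774 and 9839 had 0.85, 0.83 and 0.73. Of these 6, probes 7898 and 13284 did not pass without the 4 strains, none passed among strains up to 32, and only probe 10243 passed with the covariate. Without the 4 strains probes 10774 and 9839 shrank to 0.54 and 0.48.

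Ranked by p instead of by size, a choice made after the values were seen, the list changed. The 20 probes with the smallest p all passed in all 31 fits without 1 strain, without the 4 strains, among strains up to 32 and with the first component as covariate. They were picked for small p in the same arrays that these fits reuse, so the passes follow in part from the choice and are no independent check. With place centring 19 of them passed, all but Ttc39b (-0.29, adjusted p = 0.0566). Gabre, the epsilon subunit of the GABA-A receptor, came first. It lies at an every 8th place and ran from -2.14 (strain 29) through -1.78 to -1.41 (strain 31) in the 12, against -1.46 (strain 28) through -0.95 to -0.15 (strain 40) in the 19. The difference was -0.89 ± 0.11 (adjusted p = 9.22e-05), and strain 28 alone reached the range of the 12. Without strains 23, 28, 40 and 42, Gabre and Lsm3, a subunit of the spliceosome, were the only 2 of 21764 probes (0.00919%) whose sets did not overlap, with Lsm3 at -0.32.

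Selenbp2 came second, and Rprd2, a regulator bound to the tail of RNA polymerase II and also on chromosome 3, followed it. Rprd2 ran from -1.65 through -0.89 to -0.64 in the 12, against -0.76 through -0.27 to 0.20 in the 19 (-0.72 ± 0.10, adjusted p = 0.000161), with strains 16 and 21 within the range of the 12. Probe 19873, with no gene listed, had -0.76 ± 0.11 (adjusted p = 0.000171) and only strain 16 within the range of the 12. Nfx1, a zinc finger transcription factor, had -0.74 ± 0.11 (adjusted p = 0.000192), with strains 13 and 27 past the edge. Prr16, a regulator of cell size, had -0.96 ± 0.14 (adjusted p = 0.000235) at an every 8th place.

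The next in rank were the nuclear import receptor Tnpo2 at -0.67 and the poly(A)-binding protein Pabpc1 (an every 8th place) at -0.65, both at an adjusted p of 0.000481. Only 2 others of the 10 smallest were higher in the 12, 1700034H15Rik at 0.53 and Rap1gapos at 0.50. Below them came the membrane fusion protein Stx4a (-0.75), the neutrophil chemokine receptor Cxcr2 (-0.995), the chaperonin-like Mkks (-0.43), Tmem19 (-0.70), the natural killer cell receptor Ncr1 (-0.58), Ttc39b (-0.43) and a probe of the T cell receptor gene Tcrb-V8.2 (-0.46). Of these, Stx4a, Cxcr2, Ncr1 and Ttc39b lie at every 8th places. Strains 13 and 21 were the ones most often past the edge of the 12 at these probes, as in the shares over all 693.

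Gene lists of liver pathways and cell types added few calls. Of 700 list probes, 23 passed (3.29%), near the background of 3.18%, 11 higher and 12 lower, in 14 of 31 lists, and 12 of the 23 held in all 31 fits without 1 strain. None of the 23 passed among strains up to 32, and only Scd1 and Fasn passed with the first component as covariate. Without the 4 strains 17 passed, all but Cth, Mx2, Mup2, Uqcrc1, Psmd12 and Hspd1, and with place centring 19 passed, all but Cth, Socs2, Rpl38 and Hspd1. With the covariate Dbp, Fgg, Mx2, Rps16, Psmd12 and Epb42 shrank by more than 1.5 times. In the clock list of 16 probes, Dbp, an output factor of the circadian clock, was lower (-0.62 ± 0.14, adjusted p = 0.0145), running from -0.86 through -0.58 to -0.31 in the 12, against -0.80 through -0.07 to 0.92 in the 19. Arntl, the core clock activator BMAL1, which peaks at another time of day than Dbp, had 0.35 (adjusted p = 0.070). No label gives the hour at which the livers were taken, so a difference in hour and a difference between strains cannot be told apart.

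In the mitochondrial and translation lists, 3 of 68 oxidative phosphorylation probes were higher. These were Atp5c1, the gamma subunit of ATP synthase (0.49 ± 0.10, adjusted p = 0.00755), Ndufs3 of complex I (0.54, 0.0197) and Uqcrc1 of complex III (0.36, 0.0373, but 0.0601 without the 4 strains), with a list median of 0.04. Atp5c1 ran from 0.02 through 0.38 to 1.01 in the 12, against -0.83 through -0.03 to 0.30 in the 19. Of 69 cytosolic ribosomal protein probes 3 were lower, Rpl32 (-0.26), Rps16 (-0.53) and Rpl38 (-0.77, an every 8th place, not passing with place centring at an adjusted p of 0.0606), none was higher, and the median was -0.08. Of 36 proteasome probes only Psmd12 passed (-0.72, an every 8th place, not passing without the 4 strains at an adjusted p of 0.0623), with a median of -0.04.

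Of 24 chaperone probes, the mitochondrial chaperones Hspa9 (-0.97 ± 0.19, adjusted p = 0.00727) and Hspd1 (-0.38, 0.0292), both at every 8th places, were lower. Hspd1 did not pass with place centring (-0.24, adjusted p = 0.170) or without the 4 strains (-0.34, 0.0516), and Hspa9 missed among strains up to 32 (-0.85, 0.0540). Hspa5, the chaperone of the endoplasmic reticulum also known as BiP, was higher (0.37, 0.0390, passing in 17 of 31 fits), and the list median was 0.07. Hspa9 ran from -2.73 through -2.30 to -2.07 in the 12, against -2.22 through -1.54 to 0.39 in the 19, with strains 20 and 21 within the range of the 12.

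Another single call was Fgg, the fibrinogen gamma chain of the acute phase response (0.72, adjusted p = 0.0265, 1 of 27 probes). Cth, the transsulfuration enzyme cystathionine gamma-lyase, had 0.31 (0.0461, 1 of 12 in the glycine cleavage and methionine cycle list). It passed in 10 of the 31 fits and missed without the 4 strains (0.0629) and with place centring (0.0533). The interferon-induced Mx2 had 0.35 (0.0364, 1 of 29) and missed without the 4 strains (0.0599). Socs2, a feedback inhibitor of growth hormone signalling, had -0.36 (0.0197, an every 8th place) but -0.22 (adjusted p = 0.167) with place centring, and with Mup2 made 2 of 20 in the growth hormone list. Epb42, a red cell membrane protein, had 0.34 (0.0454, passing in 11 of 31 fits) as 1 of 6 erythroid probes, while the erythroid Alas2 and Klf1 had 0.25 and -0.13 and did not pass, and Hba-a1 had -0.53 (adjusted p = 0.108).

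No probe passed in the lists of cholesterol synthesis and uptake (18 probes, median difference 0.08), bile acid synthesis and transport (19, 0.05), gluconeogenesis and glycolysis (13, -0.05) or urea cycle and amino acid catabolism (19, 0.01). Nor did any in cytochrome P450 families 1 to 3 (29, 0.06), the glutathione, glucuronide and sulfate transferases (28, 0.09), complement and coagulation (36, 0.13) or the major histocompatibility complex (29, 0.15). The same held for the hepatocyte (20, 0.13), sinusoidal endothelium (12, 0.11), stellate cell and fibroblast (15, -0.01), bile duct (8, -0.08), exocrine pancreas (26, 0.11) and skeletal muscle (13, -0.07) lists. The class II gene H2-DMb2 had the largest difference among these that missed the threshold, 1.15 (adjusted p = 0.054).

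None of the 10 probes of genes known to differ between C57BL/6J and DBA/2J passed, nor did any of the 9 Y-linked probes. Of the genes that differ between the parents, Nnt had -0.20 (adjusted p = 0.222), Gpnmb 0.14 (0.434) and Glo1 0.15 (0.658). A miss at this number of strains does not show that the sets are alike at these genes.

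**Figure D4:**
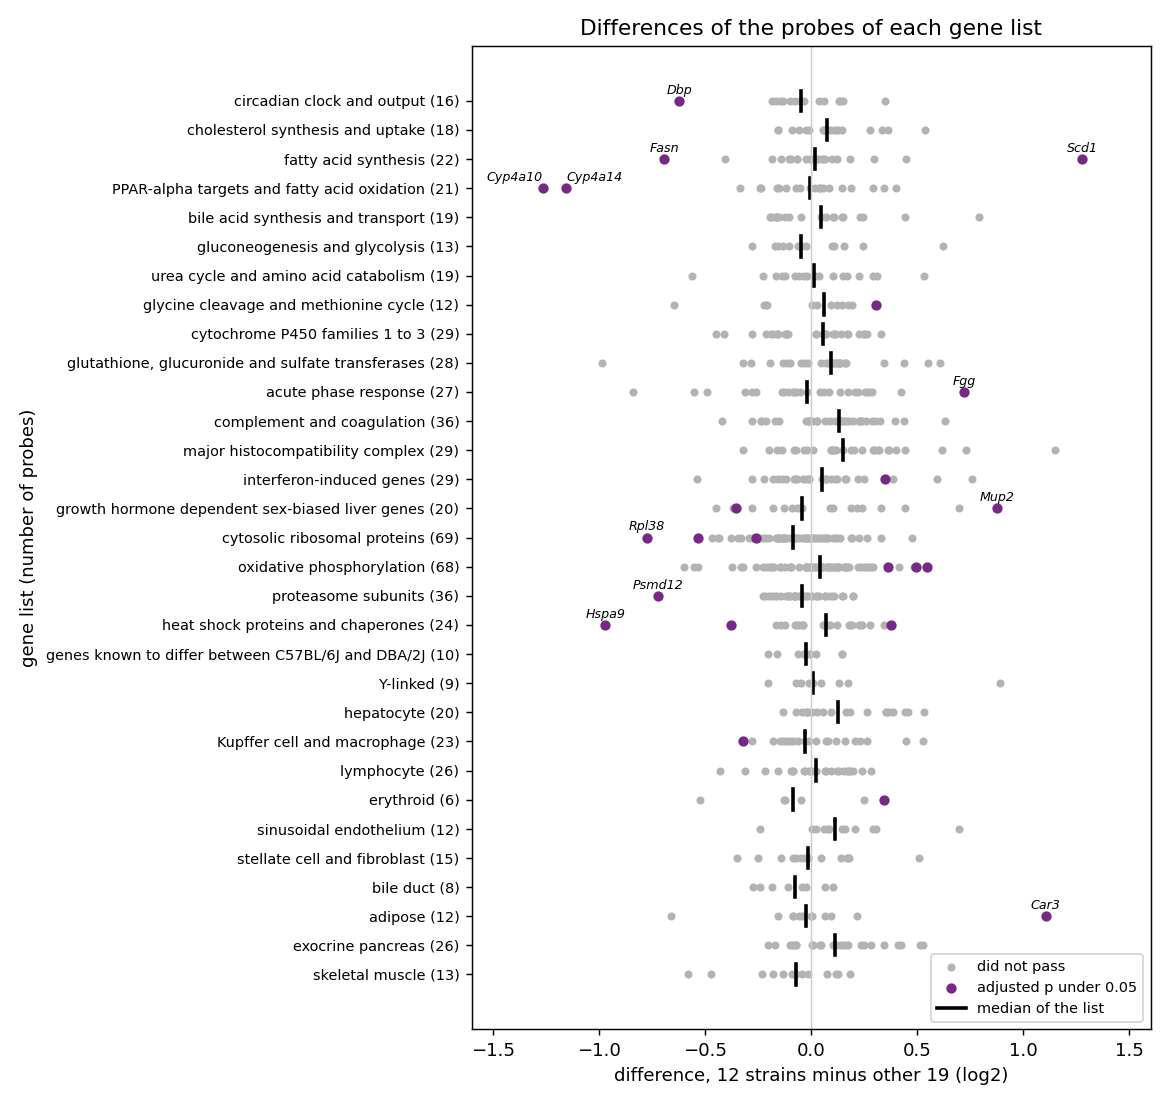
Difference of the 12 strains minus the other 19 (horizontal axis, log2) for every probe of 31 gene lists, 1 row per list with its number of probes; purple points passed at an adjusted p under 0.05, grey points did not, and black bars are list medians. List medians lie between -0.09 and 0.15, and the 23 probes that passed are scattered over 14 lists.

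The calls were spread over the genome, from 1.75% of probes on chromosome 15 to 4.47% on chromosome 18, and 0 of 16 on the Y. Genes next to the 24 named ones, up to 3 places on each side, were called in 9 of 144 cases (6.25%), against 497 of 14626 placed genes (3.40%). Of these 9, 4 are the Selenbp and Cyp4a pairs counted from each side. The others were Ms4a6d, Ecd beside Kcnk5 (-0.68, adjusted p = 0.049), Pcsk5 beside Eef1a1-ps1 (-0.35), Dkkl1 beside Tead2 (-0.55) and 4933432I03Rik beside Scel (0.24). Ecd, Pcsk5 and 4933432I03Rik are opposite in sign to the gene they neighbour, and Ms4a6d and Dkkl1 have its sign.

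Other probes of a called gene rarely passed. There were 79 genes with a called probe and at least 1 other. Of their 272 other probes, 144 (52.9%) had the same sign as the called one, and 5 were also called with that sign. Over all probes 3.18% were called, in either direction. The 5 came from 3 names, Gm26504, Tcrb-V8.2 and Zfp74. Tcrb-V8.2 alone gave 150 of the 272 other probes, 82 of the 144 with the same sign and 3 of the 5 calls. A gene named here from 1 probe therefore rests on that probe.

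Differences were larger from the later strains. Among the 693, which were chosen for their difference from all 19, the median size was 0.46 against the 7 strains numbered above 32 and 0.34 against the 12 others numbered up to 32. Over all 21764 probes these medians were 0.15 and 0.09, and a mean of 7 strains also varies more than a mean of 12. The 7 include strains 38, 40 and 42, with median correlations with the other arrays of 0.57, 0.06 and 0.33. The 12 others include strains 23 and 28, at 0.24 and 0.37. The split was not repeated without these strains, so later numbering and poorly correlated arrays were not separated. The difference from the 7 was the larger at 86.4% of the 693 and at 71.4% of all probes. The spread was wider in the 19 than in the 12 at 83.7% of the called probes, against 77.8% of all probes, and without the 4 strains at 71.0%, against 58.3% of all.

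Correlations with the defining probe inside each set are a description, since its values chose the sets. Over the 443 probes lower in the 12, the median correlation with the defining probe was 0.04 over the 12 and -0.32 over the 19 (-0.21 over the 15). Over the 250 higher probes it was -0.09 over the 12 and 0.26 over the 19, and over all probes -0.01 and 0.04. The highest correlations over the 12 were those of Trappc6b (0.93), Adck1 (0.91), Vmn1r-ps8 (0.90), Ctsw (0.88) and probe 15309 (0.88), and the lowest those of Tank (-0.90), Sema3b (-0.89), Pmaip1 (-0.88), Fasl (-0.87) and Plcb1 (-0.87). Over the 19 the highest were Fer (0.87), Samsn1 (0.84), probe 2194 (0.82), Hormad2 (0.82) and Pudp (0.80), and the lowest Bbc3 (-0.81), Tnfaip6 (-0.78), probe 1167 (-0.77), Lpgat1 (-0.77) and Tub (-0.76). No probe was on the list of both sets, and of these 20 only probe 15309 was called. These are the extremes of 21764 correlations over few arrays that share a reference, and they are given as a description.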

How the data were processed

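Whole livers of 31 BXD strains were profiled on 31 two-colour arrays. The authors deposited normalized log ratios, read here as log2 of strain over the C57BL/6J reference. The submitters' processing notes name limma and R 2.0.0 as tools. The sources used here do not give the background correction, the normalization steps, the log base or the direction. All arrays have the same distribution of values (largest difference of sorted values 0.000256), and no intensities were used, so precision is limited by the number of arrays.

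Of 23040 features, 21765 had values on all arrays. Without the probe that defines the sets, 21764 were fitted as the 12 strains minus the other 19 with limma 3.58.1 in R 4.3.3 (lmFit, eBayes, Benjamini-Hochberg adjusted p under 0.05), and the fit was tested on simulated data. The annotation gave 1 gene for 16642 probes, several for 134 and none for 4988. Of those with 1 gene, 15964 matched a RefSeq (GRCm38.p6) entry, whose symbol was used. Promoter windows came from RefSeq.

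Named were the 12 highest and 12 lowest passing probes with 1 gene and no clone name, up to 3 without a gene per direction, up to 4 members of each list by smallest p, other probes of named genes, up to 3 neighbours on each side, and the 5 highest and lowest correlations with the defining probe. The strain sets, gene lists and this rule were chosen with earlier results of these data known. The ranking by p, the midpoint shares, the comparisons of spread, of later strains and of gene pairs, the promoters and the fits without 1 strain were chosen after the values were seen. Alternatives are in the closing section.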

Additional observations from a re-analysis of the deposited data

How the results depend on the processing

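The 693 calls (250 higher, 443 lower) became 426 without the every 8th probes (239 lower), 73 among strains up to 32 (15 and 58), 1468 with array quality weights (652 and 816), 189 with the first principal component as covariate (126 and 63) and 459 with probes of a gene averaged (166 and 293). Higher calls were 400 without strains 23, 28, 40 and 42, and 422 when place centring, added after seeing the data, was combined with this. Without 1 strain at a time, also added, calls ran from 334 to 1375, higher calls from 98 to 592 and lower calls from 236 to 783. Place centring alone (577), scaling (694) and robust eBayes (683) moved the count by less than 1.5 times. The share of lower calls was 33.3% with the component and 79.5% among strains up to 32, against 63.9%.

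Of 147 named or list probes, those that turned sign were not called in the fit reported. With the component as covariate these were Tnnc1 (-0.017), Psmd11 (0.0029), Glo1 (-0.12), Nr1d2 (0.056) and Nsdhl (-0.067). Glo1 was also at -0.017 without the 4 strains and -0.019 with place centring added, where Nr1d2 was at 0.0059, and Slco1b2 averaged over probes was at 0.16. Calls were lost for 45 probes among strains up to 32 and 44 with the component. The cause was not tested; the first of these has fewer strains, and the component, 29.2% of the variance, itself differed between the sets (-20.9 to -5.29 in the 12, against -20.6 to 75.1 in the 19). No paired analysis was possible because each strain has 1 array and the sets share no strain.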
